A study of Mus musculus with 9 samples.

Results

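Insulin and IGF receptor signalling was read here from 6 genes: Igf1, Igf1r, Insr, Irs1, Irs2 and Rasgrf1. They were chosen by name, as 6 of 18193 genes measured, and read from every probe set that the platform annotation assigns to them, 17 of the 45037 that are not array controls. Igf1 had 4 probe sets, Igf1r 5, Insr 3, Irs1 1, Irs2 1 and Rasgrf1 3.

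The study profiled 3 kinds of mouse cells on 3 arrays each, with 20 cells per library: VSEL (very small embryonic-like stem cells), HSC (haematopoietic stem cells) and ESC (the embryonic stem cell line ESC-D3). VSEL (Sca-1+, Lin-, CD45-) and HSC (Sca-1+, Lin-, CD45+) came from bone marrow of C57BL/6 mice aged 4 weeks. ESC-D3 is 1 cell line of strain 129S2/SvPas, from an embryo before implantation, kept on 0.1% gelatin with leukaemia inhibitory factor (LIF) at 10 ng/ml. The labels name no transgene, deletion or drug in any group, so the marrow cells and ESC also differ in strain, age and culture. VSEL arrays 2 and 3 correlated at 0.989, where all remaining pairs within a group gave 0.831 to 0.957, and their mean was used as 1 library, which left 2 VSEL, 3 HSC and 3 ESC libraries. No label names separate animals or cultures behind the arrays, so the p-values describe the spread of these libraries, which may be technical. Defining markers of the labelled cell types were checked. All 7 embryonic stem cell markers were called lower in VSEL than in ESC and lower still in HSC, and Ptprc (CD45) lay at 13.40 to 13.68 in HSC and at 3.24 to 3.59 in VSEL. Of 8 measured HSC and progenitor markers 1, Slamf1, was called higher in HSC than in VSEL and in ESC, while Kit lay at 7.57 to 8.96 in HSC and 9.47 to 10.37 in ESC.

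Insulin-like growth factor 1 (Igf1) and insulin are secreted ligands, and their receptors Igf1r and Insr are tyrosine kinases at the cell surface. Active receptors phosphorylate the adaptors Irs1 and Irs2, which recruit phosphatidylinositol 3-kinase (PI3K) and so engage Akt and mTOR, while Shc and Grb2 lead to Ras and ERK. Akt keeps FoxO transcription factors out of the nucleus, and FoxO factors are known to act on Irs2 and Insr themselves. Rasgrf1 is an exchange factor that loads Ras with GTP and an imprinted gene expressed from the paternal allele in several tissues.

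Irs2 was the member that differed most, so its promoter is shown with that of Irs1, its closest relative among the members. RefSeq promoters of assembly GRCm38.p6 were found for 5 of the 6 genes, all but Insr, and the 250 bases before each start site are used. Capitals mark the E box CACGTG, the insulin response element TTGTTTTG and the GC box GGGCGG. Irs2 lies at chr8:11008930-11009179 and Irs1 at chr1:82291440-82291689, both on the minus strand.
Irs2: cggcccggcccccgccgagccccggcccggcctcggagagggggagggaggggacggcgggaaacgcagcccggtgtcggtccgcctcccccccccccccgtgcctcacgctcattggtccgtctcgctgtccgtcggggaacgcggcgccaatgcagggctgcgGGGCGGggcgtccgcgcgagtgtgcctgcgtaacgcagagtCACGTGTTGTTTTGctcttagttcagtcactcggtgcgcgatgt
Irs1: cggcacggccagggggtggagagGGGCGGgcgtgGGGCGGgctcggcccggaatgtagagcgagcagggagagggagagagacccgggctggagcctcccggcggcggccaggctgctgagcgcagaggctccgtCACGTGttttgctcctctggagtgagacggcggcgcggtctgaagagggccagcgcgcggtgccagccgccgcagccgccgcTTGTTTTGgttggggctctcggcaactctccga

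Both windows hold the E box and the insulin response element, a pair found in 0.115% of 27025 promoters searched on both strands (31 in number). In Irs2 no base lies between the motifs and they do not overlap, an arrangement found in 2 promoters, and in Irs1 76 bases lie between them. Singly the E box occurred in 6.05% of promoters, the insulin response element in 2.22% and the GC box in 32.9%. The exact letters TGTTTAC, searched as a FoxO core (3.09% of promoters), and the cAMP response element TGACGTCA (1.62%) were in none of the 5 windows. The insulin response element TTGTTTTG shares the letters TGTTT with that core. Only exact letters were searched, so this does not show that the windows lack a FoxO site. Irs1 and Irs2 had 28 and 34 CpG dinucleotides, Igf1r 42, Rasgrf1 21 and Igf1 5. A match is a description of the letters and not a measured binding site, and the motifs were chosen after the sequences had been read.

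Most probe sets of these genes lay near the level of genes that such cells are not known to express. The 95th percentile of 43 olfactory receptor probe sets reached 6.18 to 6.39 on VSEL arrays, while HSC arrays gave 5.55 to 5.82 and ESC arrays 5.60 to 5.66. Values are log2 RMA values throughout. Of the 17 member probe sets, 13 were at or below this level on every array, against 46.5% of all probe sets. No member was above it on all 9 arrays, where 20.6% of all probe sets were. The exceptions were Irs2 (4 arrays), Insr 1434446_at (5 arrays), Igf1r 1452982_at (8 arrays) and Igf1 1452014_a_at (3 arrays). VSEL arrays had a higher lower quartile over all probe sets (3.89 to 3.95) than HSC and ESC arrays (3.67 to 3.73). Their upper quartile was lower (6.63 to 6.68) than that of HSC and ESC arrays (7.11 to 7.18).

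**Figure D1:**
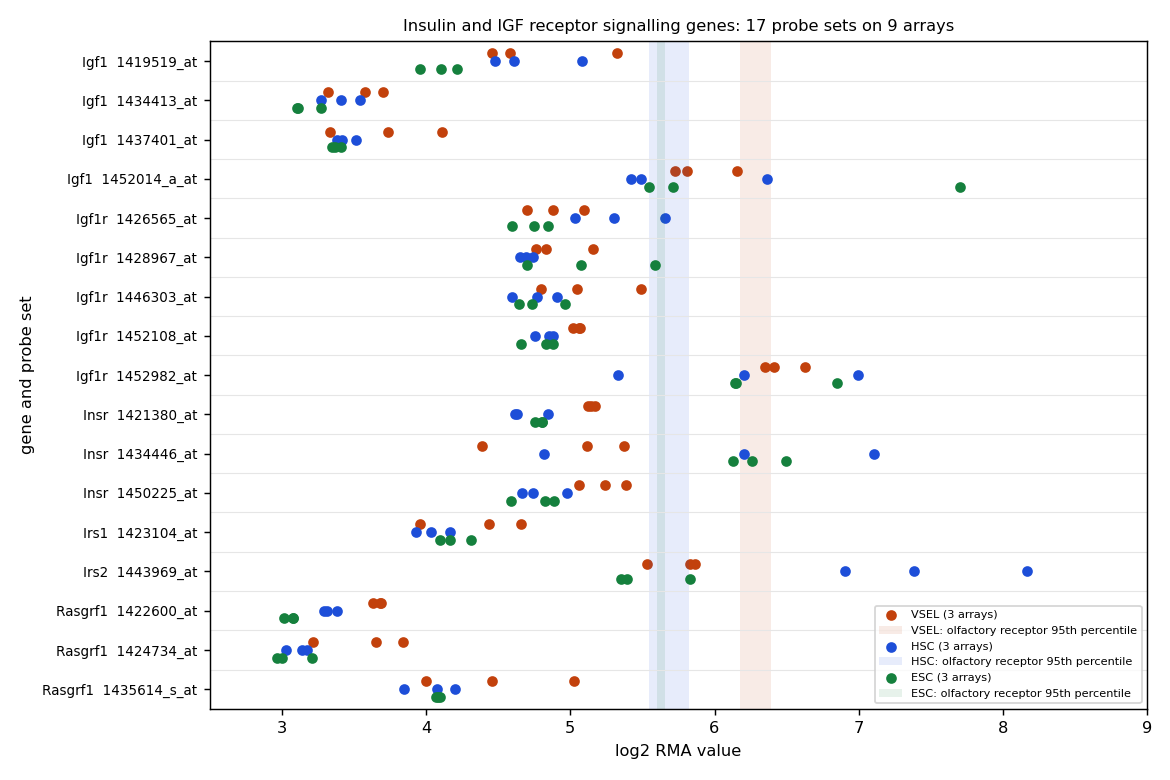
Log2 RMA values (x axis) of the 17 member probe sets (y axis) on 9 arrays, with 1 point per array, coloured by cell type. Shaded bands span the 95th percentile of olfactory receptor probe sets over the 3 arrays of each cell type; 13 probe sets lie at or below it on every array, and Irs2 stands out on the 3 HSC arrays.

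Single members passed the test in each comparison. In VSEL against HSC 1 of the 17 was called higher (Insr 1421380_at) and 1 lower (Irs2), where 14.2% of all probe sets were called, 8.0% higher and 6.19% lower. In VSEL against ESC 2 were called higher, both of Rasgrf1, where 14.1% of all were called, 7.13% higher and 6.93% lower. In HSC against ESC 1 was called higher, Irs2, where 10.6% of all were called, 4.42% higher and 6.21% lower. These counts lie near the shares over all probe sets and are no result about the members as a group. These comparisons share samples, VSEL in the first 2 and ESC in the last 2. The members' median log2 difference was 0.28 for VSEL against HSC (0.21 over all probe sets) and 0.29 for VSEL against ESC (0.17 over all). It was 0.03 for HSC against ESC (-0.02 over all). Groups did not overlap, with VSEL above HSC, for 9 members (40.0% of all probe sets) and, with VSEL below, for 2 (12.8%). VSEL lay wholly above ESC for 9 members (38.1% of all) and wholly below for 1 (16.4%). HSC lay wholly above ESC for 5 (13.3%) and wholly below for 0 (16.7%). On single arrays some of these members overlapped. Irs1 read 3.96 on VSEL array 3 and 3.93 to 4.16 in HSC, and Igf1 1437401_at on VSEL array 2 (3.34) lay below all HSC and ESC arrays.

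**Figure D2:**
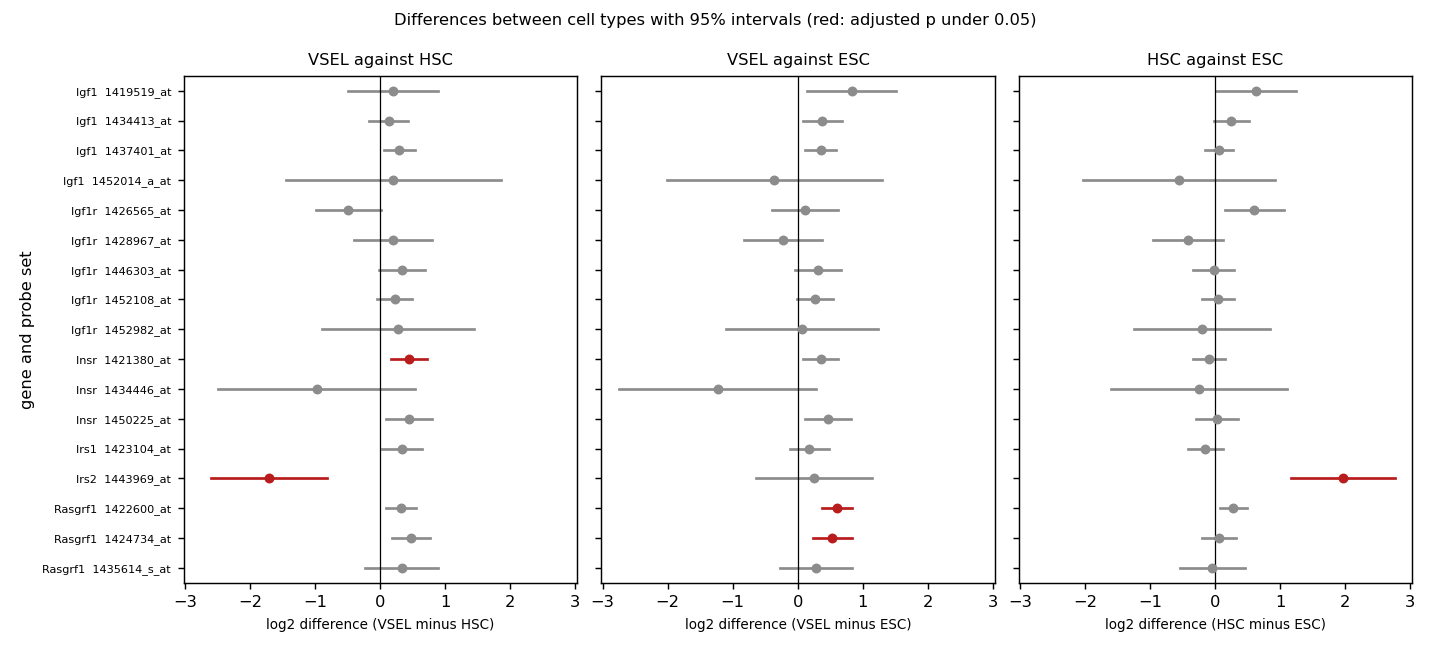
Log2 differences (x axis) of the 17 member probe sets (y axis) in the 3 comparisons, with 95% intervals from limma; red marks an adjusted p under 0.05. Irs2 is the only member called with a difference over 1 log2 unit, at -1.71 in VSEL against HSC and 1.96 in HSC against ESC.

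Irs2, the adaptor that links insulin and IGF receptors to PI3K, was highest in HSC. It read 6.91, 8.16 and 7.39 on HSC arrays 1, 2 and 3. It read 5.87, 5.53 and 5.83 on VSEL arrays 1, 2 and 3, and 5.39, 5.35 and 5.83 on the ESC arrays. Every HSC value was above every VSEL and ESC value, and the VSEL and ESC values overlapped. HSC averaged 7.49 ± 0.64 (SD, n = 3), VSEL 5.77 ± 0.13 (SD, n = 2) and ESC 5.52 ± 0.27 (SD, n = 3).

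VSEL, where Irs2 was above the olfactory receptor level on 0 of 3 arrays, was lower than HSC by a log2 difference of -1.71 (SE 0.37, 95% interval -2.60 to -0.82, limma adjusted p = 0.0325). With each dim VSEL array raised to that level, the HSC mean was 2.23-fold higher, a point value without an interval. HSC was higher than ESC, where 1 of 3 arrays passed the level, by a log2 difference of 1.96 (SE 0.33, 95% interval 1.17 to 2.76, adjusted p = 0.0128). VSEL and ESC differed by 0.25 (95% interval -0.64 to 1.14, adjusted p = 0.676), so the order of their means is within their spread. Without VSEL 1, VSEL 2+3, HSC 3, ESC 1, ESC 2 or ESC 3 the call against VSEL was lost, at adjusted p of 0.0802, 0.0947, 0.0708, 0.0592, 0.0575 and 0.0517, while the log2 difference stayed between -2.00 and -1.37. The call against ESC was lost without ESC 1 (adjusted p = 0.0509) or ESC 2 (0.0523).

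Irs2 rests on a single probe set. The arrays place it at percentiles 72.9 to 82.2 of all probe sets in HSC, 57.6 to 63.4 in VSEL and 55.9 to 62.2 in ESC. The libraries hold 20 cells, so a smaller share of cells with Irs2 and less Irs2 RNA per cell cannot be told apart.

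Some lists of blood cell markers moved with Irs2 and others did not. Of 8 T and NK cell markers, 7 were called higher in HSC than in VSEL and 8 higher than in ESC. Their summed level (log2 of the sum of linear values) was 14.62 to 15.32 in HSC, 8.51 to 11.55 in VSEL and 8.10 to 8.14 in ESC, and Cd3g, a T cell receptor chain, lay at 12.55 to 13.01 in HSC. Of 6 leukocyte markers, 4 were higher in HSC than in VSEL and all 6 higher than in ESC, with sums of 15.87 to 15.93 in HSC and 13.23 to 14.74 in VSEL. In VSEL against HSC, 2 of 10 macrophage markers were lower in VSEL, 3 of 7 B lineage and 2 of 6 erythroid markers were higher there, and 0 of 8 granulocyte markers were called. The part of these cells in the Irs2 difference was not tested. Over all genes, 8.87% were called lower and 9.33% higher in VSEL against HSC, and 6.32% higher in HSC against ESC.

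**Figure D3:**
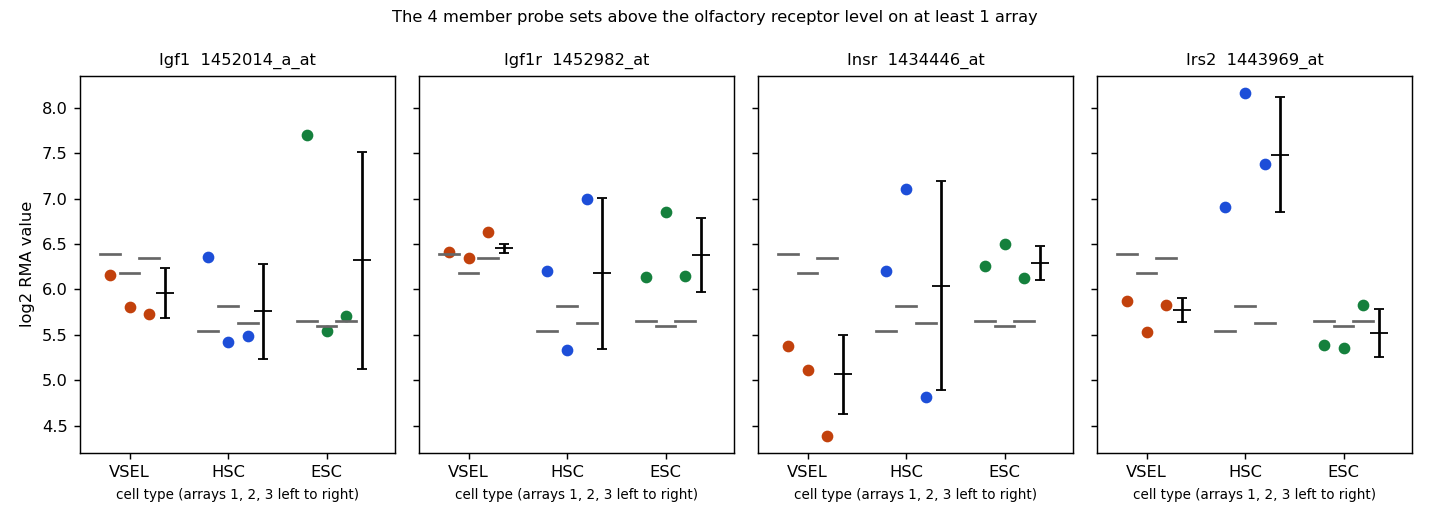
Log2 RMA values (y axis) of Irs2, Insr 1434446_at, Igf1r 1452982_at and Igf1 1452014_a_at by cell type, with 1 point per array in the order 1, 2, 3. Grey ticks mark each array's olfactory receptor 95th percentile, and black bars the mean ± SD over libraries (n = 2, 3 and 3); the 3 HSC values of Irs2 (6.91 to 8.16) lie above all others of that probe set.

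Among genes called by the moderated F test over the 3 cell types, 3 had the pattern most like Irs2 over the 8 libraries. Clec4e, which encodes a pattern recognition lectin of myeloid cells, correlated at r = 0.997, Pou6f1, a POU domain transcription factor gene, at 0.997 and Chdh, a choline dehydrogenase gene, at 0.990. Clec4e lay at 6.72 in HSC, 3.83 in VSEL and 3.49 in ESC on average. These are the highest of 4580 genes and are given as a description. No other member, read from its brightest probe set, passed the F test. The dimmer probe set Rasgrf1 1422600_at did pass it (F test adjusted p = 0.0194), while the brightest of that gene, 1435614_s_at, did not (0.498).

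Irs1, the other adaptor, was dim on every array. It read 4.44, 4.66 and 3.96 in VSEL, 3.93, 4.16 and 4.03 in HSC, and 4.17, 4.10 and 4.31 in ESC. VSEL arrays 2 and 3, counted as 1 sample, gave the highest and the second lowest of these 9 values. No Irs1 difference was called, with log2 differences of 0.33 between VSEL and HSC (adjusted p = 0.125), 0.18 between VSEL and ESC (0.359) and -0.15 between HSC and ESC (0.548).

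The insulin receptor gene Insr gave discordant probe sets. Insr 1434446_at read 5.37, 5.12 and 4.39 in VSEL, 6.21, 7.10 and 4.82 in HSC, and 6.26, 6.50 and 6.13 in ESC. All VSEL values lay below all ESC values, and the HSC values spread over 2.29 log2 units, with HSC 3 among the VSEL values. VSEL differed from ESC by -1.23 (95% interval -2.75 to 0.28, adjusted p = 0.224) and from HSC by -0.98 (95% interval -2.49 to 0.54, adjusted p = 0.314), neither of which was called.

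The other Insr probe sets had the opposite sign. Insr 1421380_at read 5.12, 5.14 and 5.17 in VSEL, 4.63, 4.85 and 4.62 in HSC, and 4.81, 4.81 and 4.76 in ESC. It was called higher in VSEL than in HSC by 0.44 (SE 0.11, adjusted p = 0.0499). The call was lost without VSEL 1 (adjusted p = 0.108), VSEL 2+3 (0.121), HSC 1 (0.109), HSC 3 (0.114), ESC 1 (0.0853), ESC 2 (0.0825) or ESC 3 (0.0817). After cyclic loess the difference was 0.10 (adjusted p = 0.676). Insr 1450225_at, from 4.59 to 5.38 over the 9 arrays, was higher in VSEL by a similar 0.44 that was not called (adjusted p = 0.0938). Both of these probe sets lay below the olfactory receptor level on all 9 arrays, so no direction is given for Insr as a gene.

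Igf1r, the receptor for Igf1, was clearest at probe set 1452982_at, which was above the olfactory receptor level on 8 of 9 arrays. It read 6.41, 6.35 and 6.63 in VSEL, 6.20, 5.33 and 6.99 in HSC, and 6.14, 6.85 and 6.15 in ESC. The 3 cell types overlapped and HSC alone spread over 1.66 log2 units. VSEL differed from HSC by 0.28 (95% interval -0.89 to 1.44) and from ESC by 0.07 (95% interval -1.10 to 1.24), intervals wide enough to hold differences of over 1 log2 unit.

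The other 4 Igf1r probe sets read 4.60 to 5.65. Igf1r 1426565_at was highest in HSC, at 5.31, 5.65 and 5.03 against 4.70, 4.88 and 5.09 on VSEL arrays and 4.60, 4.75 and 4.84 in ESC. All HSC values were above the ESC values and above both VSEL libraries, but not above VSEL array 3 alone. The log2 difference was 0.60 between HSC and ESC (adjusted p = 0.114) and -0.49 between VSEL and HSC (adjusted p = 0.159). Neither was called, and the 3 remaining probe sets had the opposite sign in VSEL against HSC (0.20 to 0.33), also without a call.

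Igf1, the ligand, was dim in all 3 cell types apart from single arrays. Igf1 1452014_a_at read 6.16, 5.81 and 5.72 in VSEL, 6.36, 5.42 and 5.49 in HSC, and 7.70, 5.55 and 5.71 in ESC. ESC 1 stood far above the other ESC arrays, which made the ESC range 2.15, and HSC 1 was also the highest of its group. The differences between groups were 0.20 for VSEL minus HSC, -0.36 for VSEL minus ESC and -0.56 for HSC minus ESC, with adjusted p of 0.851, 0.755 and 0.690.

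Igf1 1419519_at read 5.32, 4.46 and 4.58 in VSEL, 5.08, 4.61 and 4.48 in HSC, and 3.95, 4.21 and 4.10 in ESC. Every marrow value was above every ESC value at this probe set, but neither VSEL against ESC (0.83, adjusted p = 0.103) nor HSC against ESC (0.63, adjusted p = 0.228) was called. The values stood below the olfactory receptor level on all 9 arrays. The remaining 2 Igf1 probe sets read 3.11 to 4.11, with no call in any comparison.

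Rasgrf1, the imprinted Ras exchange factor, gave the lowest values among the members. Rasgrf1 1422600_at read 3.63, 3.68 and 3.69 in VSEL, 3.30, 3.39 and 3.32 in HSC, and 3.08, 3.01 and 3.08 in ESC. The 3 groups did not overlap. VSEL was called higher than ESC by 0.60 (SE 0.096, adjusted p = 0.0144), and its 0.32 over HSC (adjusted p = 0.0708) and the 0.27 of HSC over ESC (adjusted p = 0.118) were not called. The call against ESC was lost without ESC 2 (adjusted p = 0.0501).

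Rasgrf1 1424734_at read 3.65, 3.22 and 3.84 in VSEL, 3.03, 3.18 and 3.14 in HSC, and 3.21, 2.96 and 3.00 in ESC. It was called higher in VSEL than in ESC by 0.53 (SE 0.12, adjusted p = 0.0393). VSEL arrays 2 and 3, which were counted as 1 sample, differed by 0.62 at this probe set, more than the called difference. The call was lost without VSEL 1 (adjusted p = 0.115), VSEL 2+3 (0.0687), HSC 2 (0.0599), HSC 3 (0.0666), ESC 1 (0.0537), ESC 2 (0.108) or ESC 3 (0.0968). It was also lost after quantile normalization (0.36, adjusted p = 0.120) and after cyclic loess (0.35, adjusted p = 0.141).

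The third probe set, Rasgrf1 1435614_s_at, read 4.00, 4.46 and 5.02 in VSEL and 3.85 to 4.20 in HSC and ESC. VSEL array 1 lay inside the range of the other cell types, and no difference was called (adjusted p = 0.352 against HSC and 0.425 against ESC). All 3 Rasgrf1 probe sets were below the olfactory receptor level on all 9 arrays. Quantile normalization and cyclic loess moved the median of all probe sets in VSEL against ESC by -0.12 and -0.17. With them the difference of Rasgrf1 1422600_at was 0.42 (adjusted p = 0.0359) and 0.41 (adjusted p = 0.0435). Whether its small difference from ESC is one of Rasgrf1 RNA was not tested.

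VSEL arrays 2 and 3 are labelled as separate samples, and whether they are 1 library measured again is not known. They differed by more than 0.3 at 9 of the 17 member probe sets and by up to 0.77 (Igf1 1437401_at). Their median absolute difference over the members was 0.32, close to the 0.25 and 0.33 between VSEL array 1 and arrays 2 and 3. Within HSC this median was 0.13 to 0.23 and within ESC 0.088 to 0.17. The called differences of Insr and Rasgrf1 (0.44 to 0.60) lay within the range of these gaps at other members, and those of Irs2 (-1.71 and 1.96) beyond it. At the called probe sets themselves the gap was 0.03 for Insr 1421380_at, 0.0036 for Rasgrf1 1422600_at and 0.30 for Irs2. Most members are dim, and bright probe sets gave another picture. Where the pair mean was above 9, the SD of the difference between VSEL arrays 2 and 3 was 0.20. Between array 1 and arrays 2 and 3 it was 2.06 and 2.16.

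The rest of the pathway was read from 6 lists ordered by role, in which 109 of 122 genes had a probe set of their own, each taken at its brightest one. In VSEL against HSC 9 of the 109 were higher and 18 lower, where 18.2% of all genes were called (9.33% higher, 8.87% lower). In VSEL against ESC 8 were higher and 15 lower (17.8% of all genes called; 7.64% higher, 10.2% lower). In HSC against ESC 14 were higher and 11 lower (15.2% of all genes called, with 6.32% higher and 8.87% lower). These shares over all genes are the reference for the counts per list below, where they are not repeated. Many of those counts are small and near these shares, and no list was tested as a set. The median log2 difference of the 109 was -0.13, -0.16 and -0.01 in the 3 comparisons, beside 0.22, 0.11 and -0.04 over all genes. The split of calls depended on scaling: 14 higher and 16 lower in VSEL against HSC after quantile normalization, 10 and 12 after cyclic loess, and 16 and 15 when centred on ribosomal proteins. In VSEL against ESC it was 12 and 9, 8 and 6, and 11 and 11 under the same settings. Of 53 calls chosen by size for naming, 24 held with any library left out, and a named call that did not hold has the loss given with it. Folds are between group means of measured values. Where a group did not pass the olfactory receptor level, the fold is taken with its dim arrays raised to that level. Such a fold over the level is a point value without an interval and is not a lower bound. Only 2 of 3 arrays of the dimmer group passed it for Gab1 and Grb7 in HSC, Shc1 in VSEL and Sesn3 in ESC.

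In the ligand group, 2 of 16 genes were higher and 0 lower in VSEL against HSC, 1 higher and 2 lower in VSEL against ESC, and 3 lower in HSC against ESC. Igfbp2, a secreted carrier of IGF proteins, read 10.11, 9.87 and 9.52 in VSEL, 4.02, 4.25 and 5.03 in HSC, and 12.44, 12.53 and 13.10 in ESC. The groups were far apart, and VSEL was above HSC by a log2 difference of 5.47 (adjusted p = 0.000477). With the HSC arrays raised to the olfactory receptor level, which HSC did not pass, the VSEL mean was 18.8-fold higher. VSEL was 6.91-fold below ESC (adjusted p = 0.00717). Igf2bp3, an RNA-binding protein gene named for the Igf2 transcript, fell by 2.77 from ESC to HSC (adjusted p = 0.00174). Igfbp4, another carrier, was 8.65-fold higher in VSEL than in ESC (adjusted p = 0.0164), a call lost without VSEL 2+3 (adjusted p = 0.0576). Igf2, the other IGF ligand, fell outside the rule for named genes and is given as the relative of Igf1, without leave-outs. It ranged from 6.20 to 7.51 in HSC, while VSEL gave 7.88 to 7.91 and ESC 8.66 to 9.34, and was called in HSC against ESC (-2.03, adjusted p = 0.0151).

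In the receptor group, 1 of 14 was higher and 2 lower in VSEL against HSC, 0 higher and 3 lower in VSEL against ESC, and 2 higher and 2 lower in HSC against ESC. Socs3, an inducible inhibitor of cytokine and insulin receptor signalling, read 8.29, 8.66 and 7.96 in VSEL, 12.08, 12.92 and 11.90 in HSC, and 10.93, 10.78 and 10.64 in ESC. It was lowest in VSEL, 16.0-fold below HSC (adjusted p = 0.000866) and 5.58-fold below ESC (adjusted p = 0.00625). Ptprf, a receptor tyrosine phosphatase gene, was 14.7-fold lower in HSC than in ESC (adjusted p = 0.00107) and Grb7, an adaptor that binds receptor kinases, 8.17-fold lower (adjusted p = 0.0104).

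Single adaptor genes differed in both directions. Gab1, a docking protein for PI3K and Shp2, read 8.68, 8.91 and 8.54 in VSEL, 6.54, 5.23 and 5.76 in HSC, and 10.54, 11.15 and 11.30 in ESC. VSEL was 7.25-fold above HSC (adjusted p = 0.00978) and HSC 35.6-fold below ESC (adjusted p = 0.000329). VSEL was also 4.90-fold below ESC (adjusted p = 0.0193), a call lost without VSEL 1 (0.0615), VSEL 2+3 (0.0566), ESC 2 (0.0632) or ESC 3 (0.0555). Grb2 and Shc1, the adaptors that lead to Ras, were 3.96-fold and 3.20-fold lower in VSEL than in HSC (adjusted p = 0.0103 and 0.0102), and Shc1 was 3.13-fold lower than in ESC (adjusted p = 0.0112). Of the 10 adaptors, 1 was higher and 2 lower in VSEL against HSC, 2 lower in VSEL against ESC, and 1 higher and 1 lower in HSC against ESC.

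**Figure D4:**
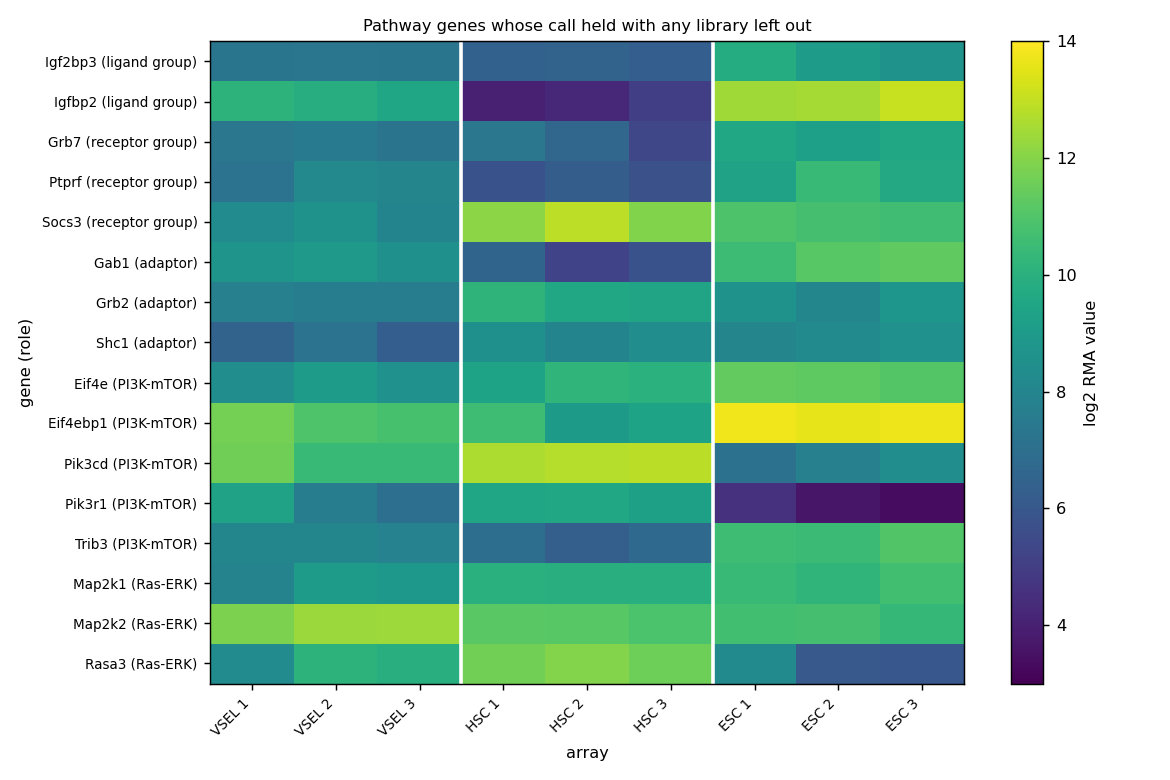
Log2 RMA values (colour scale) of 16 pathway genes (rows, with their role) on 9 arrays (columns), chosen as genes with at least 1 named call that held with any library left out. Igfbp2 and Gab1 are brightest on the ESC arrays, intermediate on the VSEL arrays and dimmest on the HSC arrays, and Pik3r1 and Pik3cd are dimmest on the ESC arrays.

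In the arm from PI3K to mTOR, 1 of 25 was higher and 4 lower in VSEL against HSC, 3 higher and 5 lower in VSEL against ESC, and 3 higher and 4 lower in HSC against ESC. Pik3r1, the regulatory subunit p85 alpha of PI3K, read 9.33, 7.66 and 7.01 in VSEL, 9.45, 9.57 and 9.25 in HSC, and 4.58, 3.66 and 3.37 in ESC. Both marrow groups were above ESC, VSEL by a log2 difference of 4.46 (adjusted p = 0.00928) and HSC by 5.55 (adjusted p = 0.00143). All 3 ESC arrays were below the olfactory receptor level, over which the mean of VSEL was 6.48-fold and that of HSC 13.8-fold higher. Of the 3 other Pik3r1 probe sets, 2 were also called higher in VSEL against ESC. In HSC against ESC 0 of them were called and 2 had the same sign. The VSEL difference was 3.47 without VSEL 1 and 5.46 without VSEL 2+3. Pik3cd, the catalytic subunit of leukocytes, was 31.4-fold higher in HSC than in ESC (adjusted p = 0.00055). It was also 9.48-fold higher in VSEL than in ESC (adjusted p = 0.00903), although another of its 6 probe sets was called in the opposite direction there. Some lists of blood cell markers moved the same way. By the same test 8 of 8 granulocyte, 6 of 7 B lineage and 4 of 6 erythroid markers were above ESC in VSEL. In HSC these counts were 8, 4 and 3. Of 6 leukocyte, 10 macrophage and 8 T and NK cell markers, 2, 2 and 0 were above ESC in VSEL, and 6, 4 and 8 in HSC. Their part in these differences was not tested. Over all genes, 7.64% were called higher in VSEL against ESC and 6.32% higher in HSC against ESC. Eif4ebp1, the translation repressor that mTOR phosphorylates, read 11.68, 10.99 and 10.80 in VSEL, 10.58, 8.98 and 9.39 in HSC, and 13.77, 13.60 and 13.74 in ESC. It was 16.6-fold lower in HSC than in ESC (adjusted p = 0.00192). Trib3, a pseudokinase that binds Akt, was 6.52-fold lower in VSEL than in ESC (adjusted p = 0.00233) and 16.0-fold lower in HSC than in ESC (adjusted p = 0.000105).

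In the arm from Ras to ERK, to which Rasgrf1 belongs, 1 of 23 was higher and 5 lower in VSEL against HSC, 2 higher and 2 lower in VSEL against ESC, and 3 higher and 0 lower in HSC against ESC. Rasgrf2, a relative of Rasgrf1 that the rule for named genes did not choose, ranged from 5.54 to 6.19 in VSEL, with HSC at 5.18 to 5.86 and ESC at 5.05 to 5.44, and was not called. Another exchange factor gene, Sos2, read 4.92, 3.70 and 3.27 in VSEL, 7.89, 8.03 and 8.89 in HSC, and 2.44, 4.43 and 3.73 in ESC. It was lower in VSEL than in HSC by a log2 difference of -4.07 (adjusted p = 0.0176). The difference was -4.79 without VSEL 1 and -3.35, no longer called, without VSEL 2+3 (adjusted p = 0.0571). No VSEL array passed the olfactory receptor level, over which the HSC mean was 3.85-fold higher. Map2k1 and Map2k2, which encode the kinases that activate ERK, went opposite ways in VSEL against ESC, at a log2 difference of -1.99 (adjusted p = 0.0139) and 1.53 (adjusted p = 0.0101). Rasa3, a GTPase activator that switches Ras off, was 31.5-fold higher in HSC than in ESC (adjusted p = 0.00653), and 51.9-fold higher without ESC 1.

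Among FoxO factors and their targets, 3 of 21 were higher and 5 lower in VSEL against HSC, 2 higher and 1 lower in VSEL against ESC, and 5 higher and 1 lower in HSC against ESC. Sesn3, a stress-induced inhibitor of mTOR signalling and a FoxO target, read 6.18, 5.75 and 5.76 in VSEL, 9.81, 8.79 and 10.81 in HSC, and 5.63, 6.50 and 7.50 in ESC. Like Irs2 it was highest in HSC. With the VSEL arrays raised to the olfactory receptor level, which none of them passed, the HSC mean was 11.1-fold higher. The log2 difference of VSEL minus HSC was -3.83 (adjusted p = 0.0231), a call lost without VSEL 1 (0.0609), VSEL 2+3 (0.0717) or HSC 1 (0.0632). It was 9.55-fold above ESC (adjusted p = 0.0247), a call lost without HSC 1 (0.0791), HSC 3 (0.0604), ESC 1 (0.0704) or ESC 2 (0.0834). Foxo1 itself was named after its values were seen and is given without leave-outs. It read 10.03, 10.21 and 10.13 in HSC against 6.67, 7.01 and 6.50 in VSEL and 7.09, 8.50 and 6.57 in ESC (adjusted p = 0.0124 against VSEL and 0.0136 against ESC). Of the 3 genes higher in VSEL than in HSC, Gadd45a differed by 1.94 (adjusted p = 0.0187), lost without VSEL 1 (0.0675) or HSC 1 (0.0531). Foxo4 differed by 0.74 (adjusted p = 0.0458), a call lost whichever library was left out (up to 0.144). Foxo3 read 9.86 to 12.58 in VSEL and 7.62 to 9.62 in HSC, without a call. The T and NK cell markers given with Irs2 moved in the same direction as Sesn3 and Foxo1. The 7 embryonic stem cell markers had the order of Igfbp2 and Gab1, with sums of 15.78 to 15.80 in ESC, 13.22 to 13.63 in VSEL and 6.77 to 7.00 in HSC. The part of either marker group in these differences was not tested.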

How the data were processed

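The authors deposited 1 log2 value per probe set and array, for which the submitters' processing notes name RMA and Partek 6.5. As a method RMA adjusts for background, aligns array distributions and combines probes, and it shrinks differences between dim probe sets. The deposited values did not have the same distribution on all arrays, as the narrower quartile range of the VSEL arrays shows. Further settings were not stated. These values were used as deposited, without the 64 array controls. Genes were named where a probe set had 1 gene in the platform annotation (34945 probe sets, 18193 genes), with symbols updated through RefSeq identifiers.

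One limma model (version 3.58.1, R 4.3.3, two-sided moderated tests) held all 8 libraries, with 5 residual degrees of freedom and a prior of 1.33. It assumes equal spread in all cell types, although the VSEL libraries differ more than the others, which can make p-values that involve VSEL too small. Benjamini-Hochberg adjustment ran over the 45037 probe sets together, and a probe set was called at 0.05. In data simulated for VSEL against HSC over 45037 probe sets, 48 of 100 changes of 2 log2 units and 76 of 100 of 4 were called. Only these changes were put in, far fewer than the 6389 probe sets called in the data. Each simulated probe set also had the same spread in all groups, so these rates need not hold for the data. Pathway genes were named as up to 2 called genes per list, comparison and direction with the largest difference. The number of arrays limits the precision. Members and lists were chosen with earlier results of these data known.

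Deviations from the group means correlated at -0.092 to 0.16 between same-numbered arrays of different groups, and the main model did not pair arrays by number. These correlations cannot show whether same-numbered arrays shared a day, batch or animal. The olfactory receptor level is a reference for dim values chosen with earlier results known, not a detection limit, so a fold over it holds only against it.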

Additional observations from a re-analysis of the deposited data

How the results depend on the processing

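The direction of each called member difference held in all alternatives run: 21 for Irs2 and 19 for the Insr and Rasgrf1 probe sets. The 17 members gave 996 alternative values, of which 40 lost a call, 11 gained 1 and 35 changed sign without a call in either setting. Centred on ribosomal proteins, which shifted the median of VSEL against HSC by 0.46, the Irs2 call there was lost (-1.25, adjusted p = 0.0778), as it was with array weights (0.0668) and in the 2 groups alone (0.0961). The number of members called in VSEL against HSC, 2 as reported, was 1 after quantile normalization, after cyclic loess, above the median, with 1 probe set per gene and with array 2 alone for the VSEL pair, and 0 with array weights and in the 2 groups alone. It was 3 with trend and robust eBayes and with array 3 alone for the VSEL pair. In VSEL against ESC, also 2, it was 1 after quantile normalization, after cyclic loess, with array weights, in the 2 groups alone and with array 2 alone, and 0 above the median and with 1 probe set per gene. There it was 3 with trend and robust eBayes, when centred on ribosomal proteins and with array 3 alone. In HSC against ESC it was 1, and 2 with trend and robust eBayes. Leaving out single libraries gave 0 to 2 members in VSEL against HSC, 0 to 2 in VSEL against ESC and 0 to 1 in HSC against ESC. With the replicate block and 9 arrays separate, 1 member was called in each comparison, and 3, 2 and 1 without a block. The 27 pathway genes called in VSEL against HSC became 12 with array weights and 13 in the 2 groups alone, and 14 to 25 without single libraries (15 without HSC 1, 14 without HSC 3). The 23 in VSEL against ESC became 14 after cyclic loess and 15 with array weights, and 17 to 27 without single libraries. The 25 in HSC against ESC stayed within 1.5-fold under these alternatives, with 17 to 33 without single libraries. Over all probe sets, the 6389 calls in VSEL against HSC became 3932 after cyclic loess, 2702 with array weights and 2435 in the 2 groups alone, and as few as 3524 without a single library (HSC 1). The 6334 in VSEL against ESC became 3741 and 3332 with the first 2 of these, and as few as 2734 without ESC 2. The choice of array 2 or 3 alone was added after the data were seen. No detection calls were used, and values near the olfactory receptor level cannot show whether a transcript was present.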
